A study of Mus musculus with 6 samples.

Results

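The Bcl2 family decides whether the outer membrane of the mitochondrion stays intact, and 10 of its genes are described here in infarcted mouse hearts that received miR-19a/19b mimics or a control mimic. The genes were chosen by name, as the anti-apoptotic members Bcl2, Bcl2l1 and Mcl1, the effectors Bax and Bak1, and the BH3-only members Bcl2l11, Bbc3, Pmaip1, Bid and Bad, and all 10 were found among the 26012 genes measured. None of the 10 passed the threshold between the groups after adjustment over all genes, and neither did any other gene (0% of 21126 tested). The member that separated the groups was Bcl2, at 256 ± 16.0 normalised counts with miR-19a/19b mimic against 312 ± 32.8 with control mimic (mean ± SD, n = 3 hearts each), and the 95% interval of its log2 fold change, -0.57 to 0.01, included 0. In that direction 5.3% of all genes tested likewise had no overlap between the groups. Bcl2l11, which encodes Bim and has been reported as a target of miR-19, was at 737 ± 181 against 772 ± 40.7, with 1 mimic heart above every control heart and the other mimic hearts below them.

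The hearts were from male C57BL/6 mice, 8 weeks of age, and all 6 had a myocardial infarction (MI), made by tying off the left anterior descending artery. At the surgery 3 hearts were injected with miR-19a/19b mimics, which are synthetic duplexes that act in the cell as the mature miRNAs, and 3 with a control mimic, at 10 μg per heart. Ventricular tissue was taken on day 4 after MI and its polyadenylated RNA was sequenced, so no uninjured or uninjected heart is among the groups. The labels do not say how infarcted and spared tissue were divided, and the study's methods describe the replicates of each group as biological. In whole tissue, fewer cells of a type and less RNA per cell cannot be told apart.

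Healthy cells keep Bax and Bak inactive because Bcl2, Bcl-xL (from Bcl2l1) and Mcl1 hold the activators and the effectors. BH3-only proteins are the sensors of stress: they occupy the groove of the anti-apoptotic proteins or activate Bax and Bak directly, the effectors then form pores, and cytochrome c leaves the mitochondrion to assemble the apoptosome with Apaf1 and caspase 9. In the infarcted heart this route is one of the ways in which cardiomyocytes at risk die, and it also ends the life of recruited neutrophils.

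The libraries held between 19398196 and 23645308 reads on genes, and mitochondrial genes took 3.18% to 6.93% of them. One library stood apart from the other 5. In miR-19a/19b mimic replicate 3 the 8 cardiomyocyte markers were all at their lowest, with a summed level of 271791 normalised counts, against 801632 and 714214 in the other mimic hearts and 442979 to 577906 in the control hearts. None of the 8 markers was at 0 in any heart. Macrophage markers summed to 51814 in that heart, 35246 and 38957 in the other mimic hearts and 40461 to 52795 in the control hearts, and neutrophil markers to 2581, 838, 1453 and 1697 to 2035 in the same order. In miR-19a/19b mimic replicate 1 all 6 skeletal muscle markers were above the next heart by 14.8-fold or more, with a sum of 2282 against 28.3 to 69.2 elsewhere. The members are therefore given heart by heart, and their fold changes also after leaving out miR-19a/19b mimic replicate 3.

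The mature mouse miR-19a-3p and miR-19b-3p are shown first, because their seed (bases 2 to 8, in capitals) is what a 3′ UTR is matched against. Both miRNAs carry the same seed, GUGCAAA, and differ by 1 base, U11C, counted from the 5′ end with the miR-19a base first. The printed sequences are those of RefSeq on GRCm38.p6. The study's methods do not give the sequences of the injected mimics. The gene of miR-19a-3p lies on chromosome 14 with the mature strand at chr14:115044048-115044070 (plus strand), and miR-19b-3p is encoded at chr14:115044358-115044380 (plus strand) and at chrX:52741991-52742013 (minus strand).

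mmu-miR-19a-3p: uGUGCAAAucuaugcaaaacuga
mmu-miR-19b-3p: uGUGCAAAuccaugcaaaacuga

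The longest annotated 3′ UTR of each member (GENCODE M21, GRCm38) was searched on the transcribed strand for TTTGCACA, which pairs with the seed and has an A opposite the first base of the miRNA (an 8-mer), and for the 7-mers it contains, TTTGCAC (7-mer-m8) and TTGCACA (7-mer-A1). None of the 10 members held the 8-mer, against 5.81% of 15860 genes with a 3′ UTR, and 2 of 10 members held a 7-mer, against 19.4% of those genes with any match. Bcl2l11 held 2 matches, near the far end of a 3′ UTR of 4218 bases, and Bak1 held 1 in a 3′ UTR of 1504 bases. A long UTR holds a match more often: of the 1127 genes with a 3′ UTR of at least 4218 bases, 54.6% held a 7-mer or 8-mer and 16.3% an 8-mer. The 3 matches are shown in capitals within their surroundings, written 5′ to 3′ on the strand of the gene, with coordinates of the printed stretch. In Bcl2l11 they lie at bases 3868 to 3874 and 4078 to 4084 after the stop codon, and in Bak1 at bases 1399 to 1405.

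Bcl2l11, 7-mer-A1, chr2:128162185-128162209 (plus strand): tctcaaacagcgTTGCACAaagcac
Bcl2l11, 7-mer-m8, chr2:128162395-128162419 (plus strand): cttcctttacgtTTTGCACtgatga
Bak1, 7-mer-A1, chr17:27019905-27019929 (minus strand): tttttctctgtcTTGCACAacatag

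Both Bcl2l11 matches belong to transcript Bcl2l11-205 alone. The other 4 coding transcripts of the gene have annotated 3′ UTRs of 113 to 2899 bases and hold 0 matches. The reads were counted per gene, so the values cannot tell which of the 5 transcripts a heart used. A match is a description of the letters in the annotated UTR and does not show that the miRNA binds there.

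**Figure D1:**
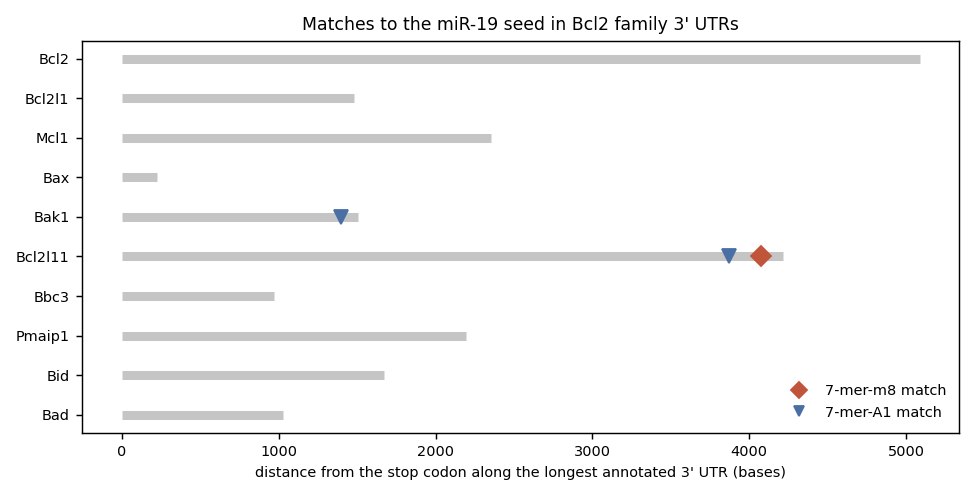
The longest annotated 3′ UTR of each of the 10 members is drawn as a grey bar by distance from the stop codon in bases, with matches to the miR-19 seed as symbols. Bcl2l11 has 2 matches near the end of its 4218 bases, Bak1 has 1, and the other 8 bars have none.

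All 10 members passed the filter on low values, a mean of at least 1 normalised count. The order of their levels was read per length, as normalised counts per kilobase of the gene length in the file. Mcl1 came first with a mean of 3317 per kilobase over the 6 hearts (range 2889 to 4001), followed by Bax at 3000 (2608 to 3675), and their ranges overlapped. Bax is less certain than the rest, since the file lists 869 bases for it where the exons of its transcripts cover 1576. The listed length was also below the exon cover for Bad (2007 against 2558 bases), Bbc3 (2008 against 2124) and Pmaip1 (2646 against 2732). Bak1 at 636 (551 to 742) and Bcl2l1 at 594 (529 to 680) overlapped too, and lay below Bax and above Bad, at 379 (348 to 425). Bbc3 at 286 (244 to 365) overlapped Bad. The remaining members were lower: Bcl2l11 was at 94.0 (71.4 to 116), Pmaip1 at 62.4 (46.0 to 80.0) and Bid at 60.4 (47.6 to 79.4), with overlapping ranges, and Bcl2 was at 31.0 (26.0 to 37.4), below every other member in every heart. Among the anti-apoptotic members, transcripts of Mcl1 and Bcl2l1 were thus present at higher levels per kilobase than those of Bcl2 in all 6 hearts.

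**Figure D2:**
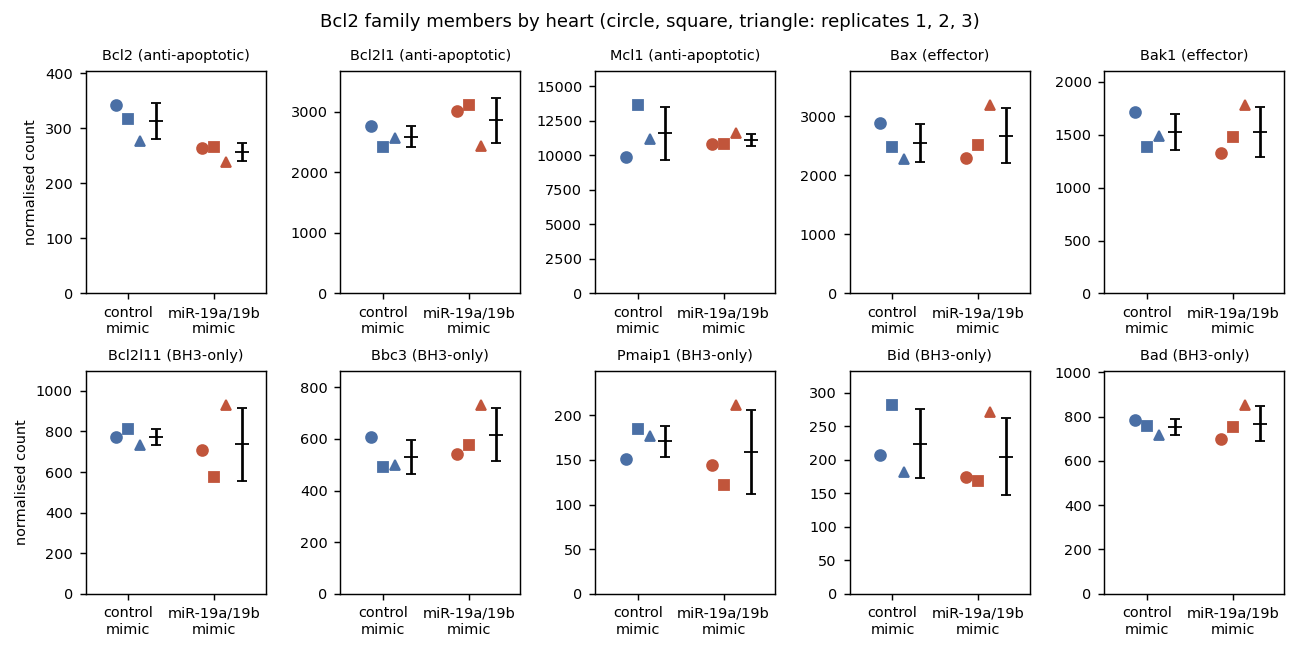
Each panel plots the normalised counts of 1 member in the 3 control mimic hearts (blue) and the 3 miR-19a/19b mimic hearts (red), with the mean and SD (n = 3) in black beside them. Bcl2 has no overlap between the groups, and the triangle of miR-19a/19b mimic replicate 3 is the highest of 6 hearts in the panels of Bax, Bak1, Bcl2l11, Bbc3, Pmaip1 and Bad.

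The groups were compared with limma on log2(normalised count + 1) over 21126 genes, with Benjamini-Hochberg adjustment over all of them, and fold changes are miR-19a/19b mimic minus control mimic on that scale. At an adjusted p under 0.05 limma called 0 genes, or 0% of those tested, and 0 of the 10 members. At an unadjusted p under 0.05 it found 848 genes, 555 lower with miR-19a/19b mimic (2.63% of the genes tested) and 293 higher (1.39%), and 0 of the members in either direction. DESeq2 called 27 genes, edgeR's exact test 30 and its quasi-likelihood test 0, and none of these tests called a member. Of the 10 members 6 had a lower mean log2 value with miR-19a/19b mimic and 4 a higher one, with a median log2 fold change of -0.03, where the median of all genes was 0.00. With 3 hearts against 3, an exact permutation test of a single gene cannot go below p = 0.1.

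Bcl2l11 (ENSMUSG00000027381, chromosome 2, 128126038 to 128162547, plus strand) encodes Bim, the BH3-only protein that binds every anti-apoptotic member and can activate Bax and Bak. Its normalised counts were 771, 813 and 732 in control mimic replicates 1, 2 and 3 and 707, 573 and 931 in the miR-19a/19b mimic hearts. The mimic hearts lay on both sides of the control hearts, replicates 1 and 2 below all of them and replicate 3 above, so that the SD was 181 with miR-19a/19b mimic and 40.7 with control mimic. The log2 fold change was -0.09 (SE 0.17, 95% interval -0.47 to 0.28), with an unadjusted p = 0.584 and an adjusted p of 0.9996 in limma. Without miR-19a/19b mimic replicate 3 it was -0.28 (95% interval -0.52 to -0.03), with an unadjusted p of 0.0315 and an adjusted p of 0.280 in limma. In the fit without that heart 6.08% of 21202 genes were lower and 8.39% were higher at an unadjusted p under 0.05. After adjustment 2.58% were called, so the lower value of Bcl2l11 stood among many. In the same fit 7 of the 8 cardiomyocyte markers were higher at an unadjusted p under 0.05 in limma. Of the macrophage markers 5 of 8 were lower at that threshold, and of the neutrophil markers 5 of 6. How far these markers go with the values of the members was not tested. A fit with the cardiomyocyte marker score of each heart as a covariate was added after the data were seen. In it the log2 fold change of Bcl2l11 over all 6 hearts was -0.05 (unadjusted p = 0.621, adjusted p = 0.927 in limma). The part of the cardiomyocyte share in the value of replicate 3 was not tested.

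The other BH3-only genes fell into those that followed Bcl2l11 across the hearts and those that did not. Pmaip1 (ENSMUSG00000024521, chromosome 18, 66458604 to 66465550, plus strand) encodes Noxa, which binds Mcl1 above all and is induced by p53. It was at 151, 184 and 177 normalised counts in the control hearts and at 144, 122 and 212 in the mimic hearts, again with replicates 1 and 2 below and replicate 3 above every control heart. Its log2 fold change was -0.14 (SE 0.21, limma unadjusted p = 0.533), and -0.36 without miR-19a/19b mimic replicate 3 (unadjusted p = 0.0450, adjusted p = 0.330 in limma). Bid (ENSMUSG00000004446, chromosome 6, 120891930 to 120916853, minus strand) is cleaved by caspase 8 and so links death receptors to the mitochondrion. It was at 208, 282 and 182 normalised counts in the control hearts and at 174, 169 and 271 in the mimic hearts, where replicates 1 and 2 lay below and replicate 3 within the control range. Its log2 fold change was -0.14 (SE 0.22, limma unadjusted p = 0.554), and -0.36 without miR-19a/19b mimic replicate 3 (limma unadjusted p = 0.0705). Bid shares 628 exon bases with Bcl2l13 on the other strand, and the strand setting of the counting is not given in the sources used here, so reads there cannot be assigned with certainty.

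Bbc3 (ENSMUSG00000002083, chromosome 7, 16309616 to 16318205, plus strand) encodes Puma, the other main BH3-only target of p53. Its normalised counts were 608, 490 and 498 in the control hearts and 540, 577 and 732 in the mimic hearts. Replicate 3 was again the highest of the 6, but here replicates 1 and 2 lay within the control range. The log2 fold change was 0.21 (SE 0.14, 95% interval -0.12 to 0.54, limma unadjusted p = 0.187), 0.08 without miR-19a/19b mimic replicate 3, and 0.24 with the cardiomyocyte marker score as a covariate (unadjusted p = 0.0405, adjusted p = 0.522 in limma). Bad (ENSMUSG00000024959, chromosome 19, 6941861 to 6951898, plus strand) encodes a BH3-only protein that Akt keeps inactive by phosphorylation. It was at 785, 758 and 716 normalised counts in the control hearts and at 698, 753 and 853 in the mimic hearts, with a log2 fold change of 0.02 (SE 0.11, 95% interval -0.22 to 0.27). It was -0.05 without miR-19a/19b mimic replicate 3. The mimic hearts again lay on both sides, replicate 1 just below and replicate 3 above every control heart. Bad shares 524 exon bases with Gpr137 on the other strand.

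The effectors had little difference in mean. Bax (ENSMUSG00000003873, chromosome 7, 45461695 to 45466898, minus strand), which moves from the cytosol to mitochondria when activated, was at 2888, 2482 and 2266 normalised counts in the control hearts and at 2298, 2517 and 3193 in the mimic hearts. Its log2 fold change was 0.06 (SE 0.15, 95% interval -0.27 to 0.40, limma unadjusted p = 0.686), and -0.07 without miR-19a/19b mimic replicate 3. Bak1 (ENSMUSG00000057789, chromosome 17, 27019810 to 27029009, minus strand), whose product sits in the outer mitochondrial membrane, was at 1716, 1383 and 1491 in the control hearts and at 1326, 1476 and 1786 in the mimic hearts. Its log2 fold change was -0.01 (SE 0.14, 95% interval -0.31 to 0.30, limma unadjusted p = 0.966). For both effectors replicate 3 was the highest heart and replicates 1 and 2 lay within or near the control range. Bak1, the other member with a seed match in its 3′ UTR, had a log2 fold change of -0.12 without that heart (95% interval -0.36 to 0.12). Members without a match ranged from -0.36 (Pmaip1 and Bid) to 0.25 (Bcl2l1) in that fit. Whether a match bears on these values was not tested. Bax shares 192 exon bases with Gm45808 on its own strand, and Bak1 shares exon bases with Ggnbp1 on the other strand.

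The anti-apoptotic members differed from each other in pattern. Bcl2 (ENSMUSG00000057329, chromosome 1, 106538178 to 106714274, minus strand), the founding member, was at 343, 316 and 277 normalised counts in the control hearts and at 265, 266 and 238 in the mimic hearts. All 3 mimic hearts lay below all 3 control hearts, which held for no other member and for 5.3% of all genes tested in that direction. The ratio of the means was 0.821, and the log2 fold change was -0.28 (SE 0.13, 95% interval -0.57 to 0.01), with an unadjusted p = 0.0535 and an adjusted p of 0.9996 in limma. Without miR-19a/19b mimic replicate 3, the heart with the lowest Bcl2, it was -0.23 (limma unadjusted p = 0.102). With the cardiomyocyte marker score as a covariate it was -0.29 (unadjusted p = 0.0254, adjusted p = 0.463 in limma). In edgeR's quasi-likelihood test it was -0.29 (unadjusted p = 0.0480, adjusted p = 0.99995). The unadjusted p of Bcl2 was 0.0813 in DESeq2 and 0.0748 in edgeR's exact test. Without control mimic replicate 1, 2 or 3 it was 0.181, 0.113 or 0.0342 in limma. Bcl2 shares 558 exon bases with D630008O14Rik on the other strand.

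Bcl2l1 (ENSMUSG00000007659, chromosome 2, 152780668 to 152831728, minus strand) encodes Bcl-xL, which guards the mitochondria of many long-lived cells. Its normalised counts were 2771, 2427 and 2573 in the control hearts and 3017, 3120 and 2437 in the mimic hearts, so that replicates 1 and 2 lay above every control heart and replicate 3 within the control range. The log2 fold change was 0.14 (SE 0.12, 95% interval -0.14 to 0.41, limma unadjusted p = 0.300), and 0.25 without miR-19a/19b mimic replicate 3 (95% interval 0.04 to 0.45, unadjusted p = 0.0226, adjusted p = 0.237 in limma). Mcl1 (ENSMUSG00000038612, chromosome 3, 95658788 to 95663176, plus strand), whose short-lived protein is needed by cardiomyocytes and neutrophils, was at 9875, 13676 and 11220 in the control hearts and at 10827, 10836 and 11597 in the mimic hearts. All 3 mimic hearts lay within the control range, and the log2 fold change was -0.05 (SE 0.15, 95% interval -0.39 to 0.29), and -0.08 without miR-19a/19b mimic replicate 3.

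**Figure D3:**
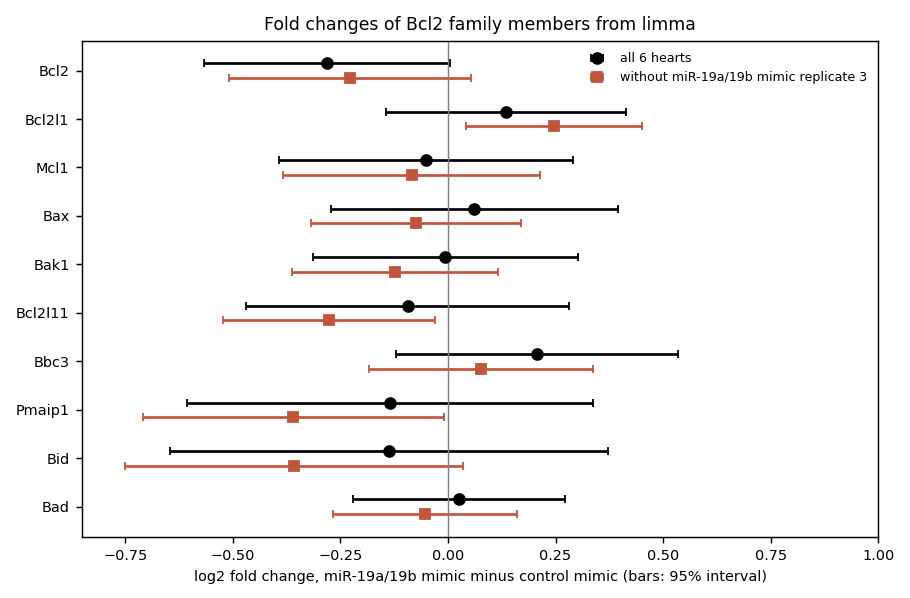
Log2 fold changes of the 10 members from limma are plotted with their 95% intervals, over all 6 hearts (black circles) and without miR-19a/19b mimic replicate 3 (red squares). Over all hearts each interval includes 0, and without that heart those of Bcl2l1, Bcl2l11 and Pmaip1 do not.

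Much of the spread of the family lay in 1 heart. In miR-19a/19b mimic replicate 3, 6 of the 10 members (Bax, Bak1, Bcl2l11, Bbc3, Pmaip1 and Bad) were at their highest of 6 hearts, which was so for 22.7% of all genes tested, and Bcl2 was at its lowest, as were 23.2% of all genes. Against the mean of the other mimic hearts that heart had 1.59 times the normalised counts of Pmaip1, 1.58 times those of Bid, 1.45 times those of Bcl2l11, 1.33 times those of Bax and 1.31 times those of Bbc3. Bcl2l1 ran the other way, at 0.794 times, and Mcl1 was at 1.07 times. The same heart had the lowest cardiomyocyte marker score, -0.97, where miR-19a/19b mimic replicates 1 and 2 had the highest, 0.63 and 0.54, and the control hearts were at -0.04, -0.31 and 0.15 (the mean log2 level of the 8 markers relative to the mean of all hearts). Without it, 2 members were lower at an unadjusted p under 0.05 (Bcl2l11 and Pmaip1), where 6.08% of all genes were, and 1 was higher (Bcl2l1), where 8.39% were, a share near that of the members. After adjustment 0 members passed, against 2.58% of all genes.

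**Figure D4:**
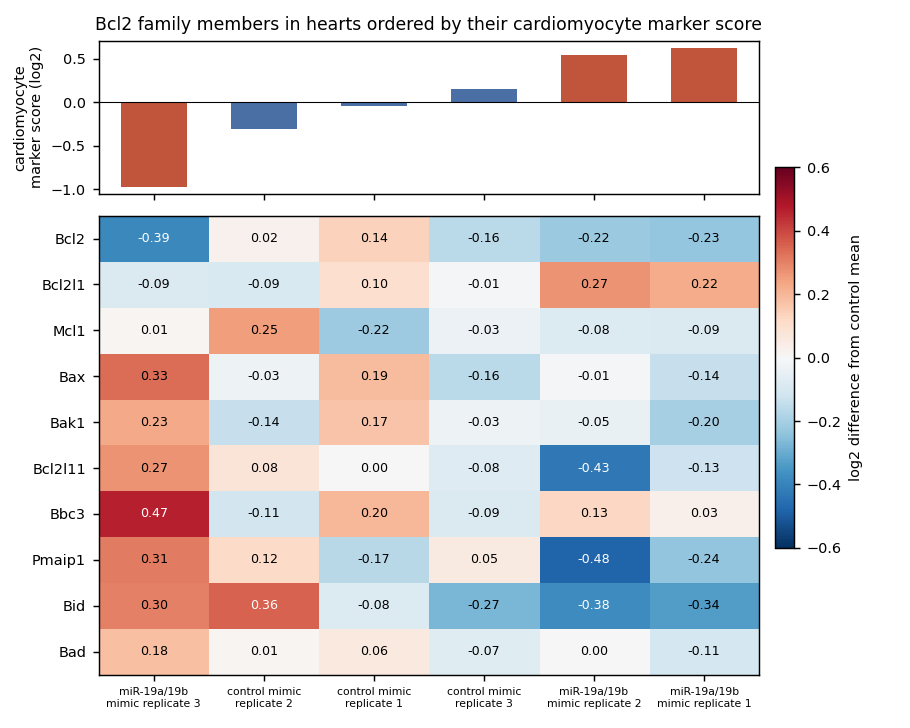
The upper panel gives the cardiomyocyte marker score (log2) of each heart, in ascending order, and the lower panel gives each member's log2 difference from the control mean in the same hearts, red above and blue below. miR-19a/19b mimic replicate 3, at the left, is above the control mean for 8 of the 10 members and below it for Bcl2 and Bcl2l1.

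The balance between members was read as a log2 ratio of normalised counts within each heart, relative to the control mean, and is given as a description with no test. Bax over Bcl2 was at 0.05, -0.05 and 0.00 in the control hearts and at 0.09, 0.22 and 0.72 in the mimic hearts. All 3 mimic hearts were above the control hearts, the first by little, and the largest value was that of replicate 3. Bax itself overlapped between the groups and Bcl2 did not, as was so for 5.3% of all genes tested in that direction. How often ratios of other genes separate the groups was not tested. Bcl2l11 over Bcl2 was at -0.14, 0.05 and 0.09 in the control hearts and at 0.11, -0.20 and 0.66 in the mimic hearts, so the groups overlapped. Bcl2l11 over Bcl2l1 was at -0.10, 0.17 and -0.07 against -0.35, -0.70 and 0.36, lower than every control heart in replicates 1 and 2 and higher in replicate 3. Bcl2l11 over Mcl1 had a mean of -0.04 ± 0.30 (SD, n = 3) in the mimic hearts and overlapped the control hearts.

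The genes whose levels most resembled those of Bcl2l11 were ranked by Pearson's r of log2(normalised count + 1) over the 6 hearts, among 11608 genes with a mean of at least 100. Casp9, the initiator caspase of the apoptosome, came first (r = 0.996), with 466, 495 and 438 normalised counts in the control hearts and 422, 354 and 541 in the mimic hearts. It had the same order of hearts as Bcl2l11, with replicate 3 at the top and replicate 2 at the bottom. Nelfa (r = 0.990), Faf2 (r = 0.989), Yeats2 (r = 0.989) and Klhl5 (r = 0.986) followed. These values are a description: the genes share the same 6 libraries, and they were picked from many as the most alike.

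The rest of the pathway was read from 6 lists, in the same fit. Of the 16 other Bcl2 family genes 15 passed the filter, 6 with a lower and 9 with a higher mean log2 value, and 0 had an unadjusted p under 0.05. Bcl2l10 was listed at 0 in all hearts. Bcl2l14 had the smallest p, at 9.95, 7.81 and 5.61 normalised counts in the control hearts and 3.23, 1.03 and 6.05 in the mimic hearts (limma unadjusted p = 0.064), and Bcl2l15 followed, at 2.21 to 4.67 against 4.12 to 8.64 (limma unadjusted p = 0.118). Both rest on few reads. Without replicate 3 the log2 fold change of Bcl2l14 went from -1.13 to -1.55 (unadjusted p = 0.0188, adjusted p = 0.214 in limma) and that of Bcl2l15 from 0.79 to 0.57. In that fit 2 of these 15 genes were lower and 2 higher at an unadjusted p under 0.05 in limma, against 6.08% and 8.39% of all genes. The BH3-only gene Bmf was at 781, 749 and 770 against 699, 590 and 900, the same order of hearts within the mimic group as for Bcl2l11, with a log2 fold change of -0.09 (-0.25 without replicate 3, unadjusted p = 0.0319 in limma). Bok, an effector-like member, had a log2 fold change of -0.07 (-0.20 without replicate 3), and Bcl2l2, which encodes the anti-apoptotic Bcl-w, one of 0.01 (0.11 without it), at 1031 to 1294 normalised counts against 1013 to 1272. Bcl2a1b was at 12.1 to 23.4 against 13.99 to 31.1, and it is uncertain, since its transcripts are 98.2% and 99.1% identical to those of Bcl2a1a and Bcl2a1d over 817 bases. Its log2 fold change was 0.16, and -0.12 without replicate 3.

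Downstream of the pores, the 11 genes of the apoptosome and caspases were lower in 9 and higher in 2, with 0 at an unadjusted p under 0.05 and a median log2 fold change of -0.03. Apaf1, the scaffold of the apoptosome, was at 899, 1074 and 957 normalised counts in the control hearts and at 807, 811 and 1043 in the mimic hearts (log2 fold change -0.14, limma unadjusted p = 0.295). Casp9 had a log2 fold change of -0.11 and Casp8, the initiator at death receptors, one of -0.13 (limma unadjusted p = 0.313). In these 3 genes replicate 3 was the highest mimic heart, as for Bcl2l11. Without it the log2 fold changes were -0.27 for Apaf1 (unadjusted p = 0.0237), -0.27 for Casp9 (unadjusted p = 0.0424) and -0.22 for Casp8 (unadjusted p = 0.0573), with adjusted p-values in limma of 0.242 and 0.321 for Apaf1 and Casp9. Cycs, which encodes cytochrome c and is abundant in cells rich in mitochondria, ran the other way, at 7902, 5164 and 8564 normalised counts against 10588, 11364 and 5296, with replicate 3 the lowest mimic heart, as it was for the 8 cardiomyocyte markers. Its log2 fold change was 0.29 (SE 0.30), and 0.64 without replicate 3 (unadjusted p = 0.0044, adjusted p = 0.0967 in limma). Without replicate 3, 2 of the 11 genes were lower and 1 was higher at an unadjusted p under 0.05 in limma. Of all genes 6.08% were lower and 8.39% higher in that fit.

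Of the 11 released proteins and caspase inhibitors 6 were lower and 5 higher, with 0 at an unadjusted p under 0.05. Birc5, which encodes survivin and is expressed in dividing cells, had the smallest p, at 531, 678 and 529 normalised counts against 513, 680 and 940 (limma unadjusted p = 0.240), next to Birc3, an inhibitor of apoptosis, at 654 to 692 against 555 to 699 (limma unadjusted p = 0.241). Without replicate 3 the log2 fold change of Birc5 went from 0.26 to 0.04 and that of Birc3 from -0.14 to -0.24 (unadjusted p = 0.0317, adjusted p = 0.281 in limma). In that fit 1 of these 11 genes was lower and 2 were higher at an unadjusted p under 0.05 in limma. The shares of all genes were 6.08% and 8.39%. Of the 9 death receptor genes 6 were lower and 3 higher. At an unadjusted p under 0.05 in limma 0 were lower and 1 was higher, against 2.63% and 1.39% of all genes tested, and that gene was Fas. It was at 351, 338 and 316 normalised counts in the control hearts and at 398, 440 and 369 in the mimic hearts, with a log2 fold change of 0.26 (SE 0.12, unadjusted p = 0.049, adjusted p = 0.9996 in limma), and 0.32 without replicate 3. In the fit without replicate 3, 1 of the 9 genes was lower and 1 higher at an unadjusted p under 0.05 in limma. Of all genes 6.08% and 8.39% were.

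Of 15 regulators of the members 5 were lower and 10 higher, with 0 at an unadjusted p under 0.05. Foxo3, a transcription factor that acts on the Bcl2l11 gene, was at 2307, 2113 and 2291 normalised counts against 3189, 2586 and 2060 (log2 fold change 0.20, limma unadjusted p = 0.222), and Akt2, a kinase that restrains Foxo3 and Bad, was at 3124 to 4007 against 3721 to 4543 (log2 fold change 0.21, limma unadjusted p = 0.160). Without replicate 3 the log2 fold change was 0.36 for Foxo3 (unadjusted p = 0.0057, adjusted p = 0.110 in limma) and 0.31 for Akt2 (unadjusted p = 0.0230, adjusted p = 0.239 in limma). In that fit 0 of the 15 regulators were lower and 3 were higher at an unadjusted p under 0.05 in limma. The shares of all genes were 6.08% and 8.39%. Of the 11 p53 targets 8 were lower and 3 higher. At an unadjusted p under 0.05 in limma 1 was lower and 0 were higher, against 2.63% and 1.39% of all genes tested. Gdf15, a secreted stress factor, was at 1547, 1449 and 1140 against 1175, 1134 and 830, overlapping in 1 heart, with a log2 fold change of -0.40 (SE 0.17, unadjusted p = 0.037, adjusted p = 0.9996 in limma). Without replicate 3 it was -0.24 (unadjusted p = 0.0747 in limma), no longer under 0.05. In that fit 1 of the 11 p53 targets was lower and 2 were higher at an unadjusted p under 0.05 in limma, against 6.08% and 8.39% of all genes.

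**Figure D5:**
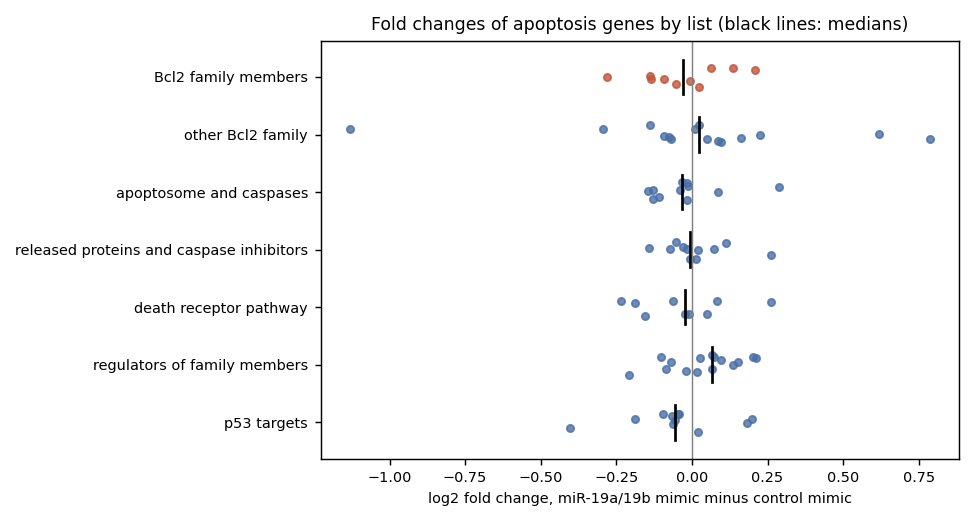
Each point is the log2 fold change of 1 gene (miR-19a/19b mimic minus control mimic, limma) in the 10 members (red) and in 6 lists of other apoptosis genes (blue), with the median of each list as a black line. The members lie between -0.28 and 0.21, and the points furthest from 0 are the weakly expressed Bcl2l14 and Bcl2l15.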

How the data were processed

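Polyadenylated RNA of ventricles from 6 mice was sequenced. According to the study's methods and the submitters' processing notes, the authors aligned the reads with STAR (2.5.1b) and counted them per gene with HTSeq (0.6.0). The deposited signal is a normalised count: the authors scaled the reads of a gene by a library size factor, and DESeq2 (1.10.1) is named in the notes. Divided by the value of 1 read, 100% of values came out whole in every library (tolerance 0.01), so reads were recovered, 19398196 to 23645308 per heart. The notes name mm9, but 25884 gene identifiers of the file were found in GENCODE M21, 100% at the same chromosome and 82.7% at identical bounds, and coordinates follow the file, on GRCm38. Columns that hold the authors' own comparison (fold changes, p-values) were not used.

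The groups were compared here with limma (3.58.1, R 4.3.3, trended prior) on log2(normalised count + 1) for 21126 of 26012 genes, those whose mean reached 1, two-sided. Fold changes of weakly expressed genes are understated on this scale. Chi-square per degree of freedom between replicates was 9.49 to 123, so none was a repeat of another. Tests on recovered reads used edgeR (4.0.16) and DESeq2 (1.42.0). Other alternatives were TMM factors, no filter, at least 10 in every heart, a pseudocount of 0.1, a replicate block and each heart left out in turn. Fits were checked on simulated data. Near-identical transcripts were sought with blastn (2.17.0).

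The members and lists were chosen with earlier results of these data known. Named were all members, any gene of another list with an unadjusted p under 0.05 or else the 2 smallest p, a few core genes (Casp9, Apaf1, Cycs, Bcl2l2, Bcl2a1b, Bok and Bmf) and the 5 genes most like Bcl2l11. Some items the rule names are not reported here. Marker lists not shown above, as sums of normalised counts over control and then mimic hearts, were fibroblast (641629 to 789951, 544434 to 893130), endothelial (24842 to 32171, 27908 to 29248), T cell (199 to 287, 151 to 175), B cell (133 to 160, 113 to 227), erythrocyte (3078 to 4137, 1999 to 3929) and smooth muscle (3845 to 4857, 3835 to 4595).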

Additional observations from a re-analysis of the deposited data

How the results depend on the processing

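Over 150 values of members under 15 alternatives, 135 kept their direction and 15 turned it, and the lowest adjusted p of any member was 0.237. The genes called, 0 with limma, were 27 with DESeq2, 30 with edgeR's exact test and 87 with the cardiomyocyte marker score as a covariate (an alternative added after the data were seen), which also gave 1906 genes at an unadjusted p under 0.05 in place of 848. Of the members 0 had an unadjusted p under 0.05 with limma. In edgeR's quasi-likelihood test 1 (Bcl2) did, among 839 such genes in all. With the covariate 2 (Bcl2 and Bbc3) did, among the 1906 genes. The log2 fold change of Bak1, -0.01 with limma, was 1.09e-07, 6.84e-06 and 2.23e-05 with DESeq2, edgeR's quasi-likelihood test and its exact test. These are among the 15 counted as turned, though too small to give a direction, and the ratio of its group means was 0.999. With the covariate it was 0.020. The cause was not tested.

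With each heart left out in turn, 0 to 547 genes were called and 610 to 3067 had an unadjusted p under 0.05. Both were highest without miR-19a/19b mimic replicate 3. Of the members 0 to 3 had such a p, 3 without that heart and 1 (Bcl2) without control mimic replicate 3, where 743 genes had one. Log2 fold changes then ranged from -0.28 to 0.073 for Bcl2l11, -0.36 to 0.038 for Pmaip1, -0.36 to 0.040 for Bid, -0.16 to 0.074 for Mcl1, -0.12 to 0.091 for Bak1, -0.075 to 0.16 for Bax and -0.053 to 0.091 for Bad, so these 7 turned direction. Those of Bcl2 (-0.36 to -0.21), Bcl2l1 (0.07 to 0.25) and Bbc3 (0.08 to 0.31) did not. The median of the members ranged from -0.10 to 0.04. Counting the 8-mer alone, 0 members had a seed match in place of 2.

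Same-numbered hearts of the groups had correlations of -0.01, -0.02 and -0.11 in their deviations from the group means, and other pairs -0.10 to 0.12. With 3 hearts a group this check cannot tell whether the numbers pair them. With the replicate block 641 genes had an unadjusted p under 0.05, 0 members did, and Bcl2 had an unadjusted p = 0.0722 in limma. With 3 hearts a group the SE of a member was 0.11 (Bad) to 0.22 (Bid) on the log2 scale, which limits the size of difference that could be told from none.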
